A study of Homo sapiens with 3 samples.

Results

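Voltage-gated and potassium ion channels were followed in undifferentiated human embryonic stem (ES) cells. The genes were chosen by symbol alone: every gene with a named probe whose symbol begins with KCN (KCNQ1 and the KCNIP genes left out), or is a numbered SCN gene ending in A or B, or a numbered CACNA, CACNB or CACNG gene. This rule gave 119 genes, read by 159 probes, of the 16225 genes with a named probe on the array. It also takes in 1 antisense RNA, KCNJ5-AS1, and the accessory CACNG genes, some of which are better known as partners of glutamate receptors.

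The samples were the human ES cell lines ES01, BG03 and H9, with 1 array each and n = 3 lines in 1 group. All were grown on irradiated mouse embryonic fibroblasts in DMEM/F12 with serum replacement and FGF2, and total RNA was extracted with TRIzol and labelled with Cy3. The comparison the study was built for, with mouse ES and epiblast-derived stem cells, is not analysed here. Neither passage number nor karyotype is given in the sources used here, the lines have no untreated or differentiated control, and since each line has a single array, differences between lines could not be tested.

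Ion channels of these families set the membrane potential. Potassium channels let potassium leave the cell and hold the membrane negative; sodium channels carry the upstroke of action potentials, and calcium channels couple depolarization to calcium entry. Most sodium and calcium channels work as a pore-forming alpha subunit with accessory subunits that move it to the surface or change its gating. ES cells do not fire action potentials, although potassium currents have been recorded from them.

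A gene was called above background on an array when its probe exceeded the 95th percentile of 215 probes for olfactory receptors, genes that are largely silent outside the nose. That threshold was 13.3 intensity units in ES01, 12.6 in BG03 and 11.2 in H9. All intensities are quantile-normalized and background-subtracted, so a probe with no signal lies near 0 and may be negative. Brightness depends on each probe, so a gene was compared with itself between lines and never with another gene.

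Most channel genes gave no signal above background in ES cells. Of the 119, 29 (24.4%) passed in all 3 lines, against 59.8% of all 16225 genes, and 49 passed in at least 1 line, against 67.8% of all genes. The other 70 passed in no line. The shares are given side by side, without a test. In ES01, 35 were above background, in BG03 40 and in H9 39. In these RNA pools of many cells, fewer cells that express a gene and less RNA of it per cell cannot be told apart, and a probe under background does not show that a gene is silent: the probe for SOX2, a gene of pluripotent cells, read 3.9, 5.0 and 3.9 in ES01, BG03 and H9.

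**Figure D1:**
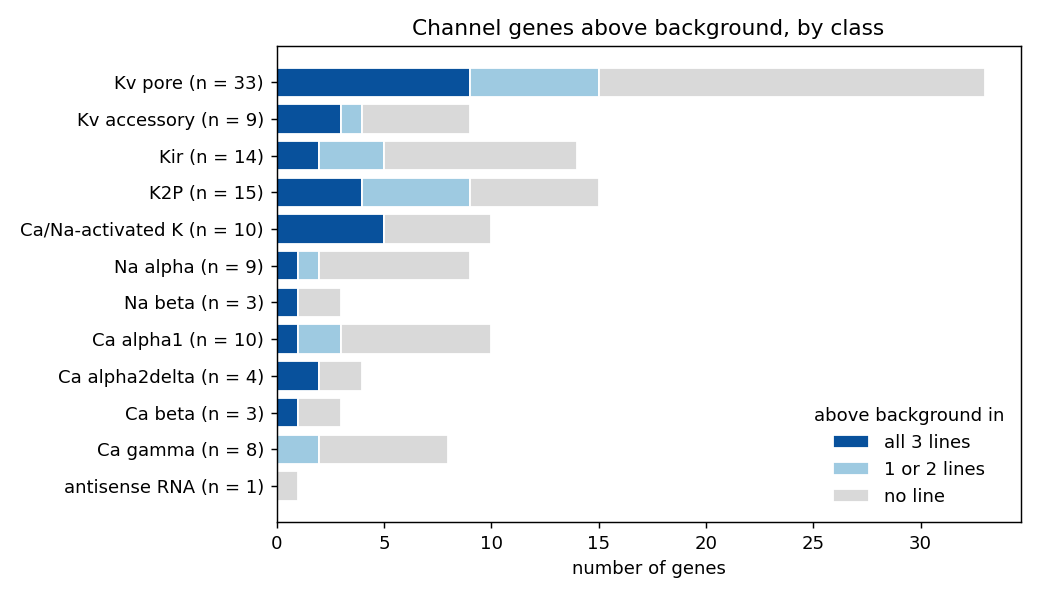
Number of channel genes (horizontal axis) that passed the background threshold in every line, in 1 or 2 or in none, by class (vertical axis, with the number measured). Of the calcium- or sodium-activated potassium channels, 5 of 10 passed in every line and 5 in none, and 0 of 8 calcium channel gamma subunits passed in every line. Of all genes, 59.8% passed in every line.

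By ion, 23 of 82 potassium channel genes (28.0%) and 6 of 37 sodium and calcium channel genes (16.2%) passed in every line. By role, 19 of 87 pore-forming subunits (21.8%) and 10 of 31 accessory subunits (32.3%) were. These shares are descriptions of 1 set of lines, and each lies below the 59.8% of all genes.

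The calls went together with the base composition of the promoters. CpG-rich promoters are typical of broadly expressed genes, and CpG-poor ones of tissue-restricted genes. Promoters of 300 bases (250 before to 50 after the RefSeq start, assembly GRCh38.p14) were found for 89 of the 119 genes. The CpG observed over expected ratio had a median of 0.75 in 24 channel genes above background in all lines, 0.62 in 13 above in 1 or 2 lines and 0.44 in 52 above in none. A ratio of at least 0.6 was held by 16 of the 24 (66.7%), 7 of the 13 (53.8%) and 22 of the 52 (42.3%), against 84.2%, 58.8% and 40.2% of all genes with the same calls. The order of the medians was the same in all genes, with of 0.85 (8102 genes), 0.70 (1003 genes) and 0.42 (4027 genes), so it is not particular to channels. To show the contrast, the 4 promoters nearest the median CpG ratio, 2 each of the genes above background in all lines and in none, are printed 5′ to 3′ with each CpG in capitals. KCNJ10 (chr1:160070111-160070410, minus strand, 29 CpG, ratio 0.75) and KCND2 (chr7:120272925-120273224, plus strand, 21 CpG, ratio 0.74) were above background in all lines, whereas KCNE1 (chr21:34512161-34512460, minus strand, 7 CpG, ratio 0.41) and KCNN3 (chr1:154870232-154870531, minus strand, 13 CpG, ratio 0.47) were above in none.
KCNJ10: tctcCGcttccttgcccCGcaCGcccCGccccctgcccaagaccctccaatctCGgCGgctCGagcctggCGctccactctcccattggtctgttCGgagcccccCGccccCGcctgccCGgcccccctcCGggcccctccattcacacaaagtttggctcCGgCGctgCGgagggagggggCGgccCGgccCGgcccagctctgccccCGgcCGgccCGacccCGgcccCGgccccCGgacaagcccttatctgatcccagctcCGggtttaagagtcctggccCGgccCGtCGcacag
KCND2: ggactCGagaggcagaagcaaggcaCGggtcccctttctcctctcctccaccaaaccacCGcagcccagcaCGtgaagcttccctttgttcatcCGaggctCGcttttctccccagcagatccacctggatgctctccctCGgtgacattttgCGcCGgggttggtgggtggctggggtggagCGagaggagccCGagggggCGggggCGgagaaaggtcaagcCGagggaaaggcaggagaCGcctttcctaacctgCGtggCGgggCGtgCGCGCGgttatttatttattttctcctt
KCNE1: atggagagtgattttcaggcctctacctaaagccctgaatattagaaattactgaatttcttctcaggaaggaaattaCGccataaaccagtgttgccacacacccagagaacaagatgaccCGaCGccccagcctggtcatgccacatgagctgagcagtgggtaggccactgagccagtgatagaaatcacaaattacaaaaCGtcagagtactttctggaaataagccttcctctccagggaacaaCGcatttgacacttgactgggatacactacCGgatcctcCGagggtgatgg
KCNN3: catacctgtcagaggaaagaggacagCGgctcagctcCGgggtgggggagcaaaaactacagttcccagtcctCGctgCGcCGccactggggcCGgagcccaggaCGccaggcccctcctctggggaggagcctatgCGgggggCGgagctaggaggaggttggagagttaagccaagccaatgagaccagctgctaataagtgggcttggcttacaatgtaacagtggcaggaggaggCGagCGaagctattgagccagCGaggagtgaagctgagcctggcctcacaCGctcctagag
The CpGs of KCNJ10 are spread over the window, 13 in its first 150 bases and 16 in its last 150, and those of KCND2 lie more in its last part, 7 and 14. The longest run without a CpG was 29 bases in KCNJ10 and 37 in KCND2, against 78 in KCNE1 and 93 in KCNN3. The KCNJ10 call is a weak one: its probe read 19.1, 13.8 and 14.1 in ES01, BG03 and H9. With the 99th percentile of olfactory receptor probes as background, KCNJ10 did not pass in every line.

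**Figure D2:**
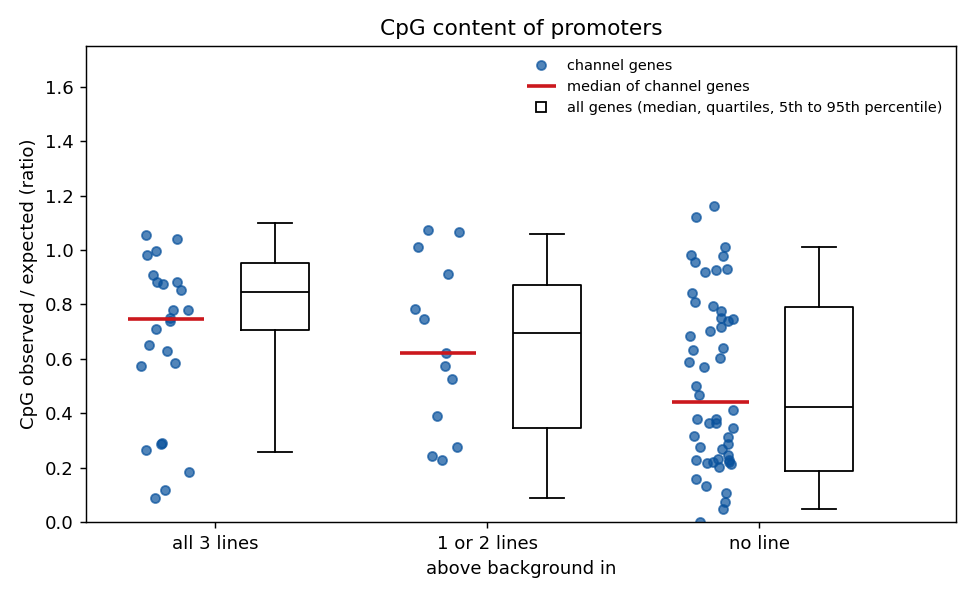
CpG observed over expected ratio of promoters (vertical axis) by the lines in which the gene was above background (horizontal axis). Points are channel genes with their median as a red line, and boxes are all genes; the channel medians were 0.75, 0.62 and 0.44 and those of all genes 0.85, 0.70 and 0.42.

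Short motifs were searched on both strands of the same windows. TATAAA, the core of the TATA box, was present in 1 of 24 channel promoters above background in all lines (4.17%), 0 of 13 in 1 or 2 lines and 6 of 52 in none (11.5%). Among all genes with those calls it was present in 5.62%, 10.8% and 15.5%. GGGCGG, a GC box that itself holds a CpG, was present in 18 of 24 (75%), 10 of 13 (76.9%) and 27 of 52 (51.9%). Among all genes with those calls it was present in 70.9%, 55.5% and 41.3%. TTCAGCACC, the left part of the RE1 element through which the repressor REST binds neuronal genes, was present in 3 of 89 channel promoters (3.37%) and in 48 of 13132 (0.366%) of all. The 3 windows are shown on the strand that reads the motif, with the match in capitals: CACNG3 (chr16:24256085-24256111, plus strand), KCNH6 (chr17:63523115-63523144, plus strand) and KCNK3 (chr2:26692680-26692709, on the strand opposite to the gene).
CACNG3: ctgtcccTTCAGCACCacggaccttgg
KCNH6: cgcggcttctTTCAGCACCaaggcgtggac
KCNK3: gagctgtcccTTCAGCACCacccaccgccc
Only KCNH6 of these was above background, and at an isoform probe alone. Its probe for all isoforms read 3.3, -3.5 and -6.4 in ES01, BG03 and H9, so that call is uncertain. The probe for REST itself read 27.6, 21.5 and 13.7 in ES01, BG03 and H9. These matches are letters in a window and show no binding.

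Of 33 pore-forming subunits of voltage-gated potassium (Kv) channels, 9 passed in every line, 6 in 1 or 2 and 18 in none. Grouped by subfamily after their values were seen, 5 of 10 silent modifier subunits (KCNF, KCNG, KCNS and KCNV) passed in every line, against 4 of the 23 other pore subunits. Among all genes 59.8% passed in every line. The grouping was made on these same values, so nothing is read from the contrast. KCNG1, among the 5, passed in every line only at its isoform probe. Silent subunits do not form a channel alone; they join Kv2 subunits and change their gating. The Kv2 gene measured, KCNB2, read 17.3, 4.0 and 12.7 in ES01, BG03 and H9 and so was above background in ES01 and H9 only.

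KCNF1 read 49.3 in ES01, 56.5 in BG03 and 42.2 in H9 (SD 0.21 on the log2 scale, n = 3 lines). KCNG1 read 55.6, 48.2 and 58.7 in ES01, BG03 and H9 (SD 0.15), and KCNS1 read 52.3, 47.5 and 43.9 (SD 0.13). KCNS3 read 172.7, 222.7 and 180.4 in ES01, BG03 and H9 (SD 0.20). These 4 silent subunits stayed close between lines, with no line apart by 2-fold. The fifth, KCNG3, read 51.9 in ES01, 113.0 in BG03 and 93.8 in H9 (SD 0.59). ES01 was low, at a log2 difference of -1.12 from BG03 and -0.85 from H9, and BG03 and H9 lay within 0.27 of each other.

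KCND1 and KCND2 encode Kv4 subunits, which carry fast-inactivating A-type current. KCND1 read 87.5, 88.8 and 70.7 in ES01, BG03 and H9 (SD 0.18), and KCND2 read 119.2, 94.2 and 110.4 (SD 0.17). Both were above background in every line, and KCND3, the other Kv4 gene, was above in none. KCNH2 encodes hERG, the channel of the rapid delayed rectifier current that repolarizes the heart; it read 39.0, 48.8 and 59.4 in ES01, BG03 and H9 (SD 0.30). KCNH6, a second gene of the same Erg group, read 4478.7 in ES01, 4153.1 in BG03 and 4020.0 in H9 (SD 0.08) at 1 of its 2 probes. The other probe of KCNH6 was above background in no line, so the level of that gene rests on 1 probe.

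None of the 7 KCNA (Shaker, Kv1) genes and none of the 3 KCNC (Shaw, Kv3) genes measured was above background in all lines. KCNA7 read 12.4, 9.7 and 15.6 in ES01, BG03 and H9 and passed in H9 alone; KCNA1, KCNA3, KCNA4, KCNA5, KCNA6, KCNA10, KCNC1, KCNC2 and KCNC4 passed in no line. Of the other KCNH genes, KCNH3 read 0.7, 7.4 and 11.5 and KCNH7 read 13.4, 10.8 and 14.4 in ES01, BG03 and H9. KCNH8 read 12.5, 13.9 and 24.2 in the same lines. KCNH3 thus passed in H9 alone, KCNH7 in ES01 and H9, and KCNH8 in BG03 and H9. KCNQ3, a subunit of the neuronal M current, read 12.1, 18.2 and 16.7 in ES01, BG03 and H9 and missed the threshold in ES01. KCNG2, KCNG4, KCNH1, KCNH4, KCNQ5, KCNS2, KCNV1 and KCNV2 passed in no line.

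Among 9 accessory genes of Kv channels, KCNAB1, KCNE3 and KCNRG were above background in all lines. KCNAB1, a beta subunit that speeds inactivation, read 54.1 in ES01, 102.9 in BG03 and 64.4 in H9 (SD 0.48). KCNE3, a single-span subunit that partners several Kv pores, read 81.7, 127.5 and 101.8 in ES01, BG03 and H9 (SD 0.32). BG03 was the high line for both. KCNRG, a soluble protein that hinders assembly of Kv channels, read 19.2, 27.7 and 12 in ES01, BG03 and H9 (SD 0.60), and its H9 value was just over that line's threshold of 11.2. KCNE5 read 12.1, 15.6 and 7.5 and passed in BG03 alone, and KCNAB2, KCNAB3, KCNE1, KCNE2 and KCNE4 passed in none.

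Inward rectifiers pass potassium more readily into the cell than out of it and stabilize the resting potential. Of 14 KCNJ genes, KCNJ2 (Kir2.1) and KCNJ10 (Kir4.1, known from glial cells) were above background in all lines. KCNJ2 read 26.9, 19.9 and 20.4 in ES01, BG03 and H9 (SD 0.24), and KCNJ10 read 19.1, 13.8 and 14.1 (SD 0.26). Both were near the threshold, and neither passed 2 times the threshold in all lines. KCNJ6 and KCNJ9 encode G protein-gated channels: KCNJ6 read 6.1, 13.5 and 5.8, and KCNJ9 read 13.4, 16.0 and 7.9 in ES01, BG03 and H9. KCNJ16 read -1.9, 14.7 and 0.4, so that KCNJ6 and KCNJ16 passed in BG03 alone and KCNJ9 failed in H9 alone. KCNJ1, KCNJ4, KCNJ5, KCNJ8, KCNJ11, KCNJ12, KCNJ13, KCNJ14, KCNJ15 and the antisense RNA KCNJ5-AS1 passed in no line.

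**Figure D3:**
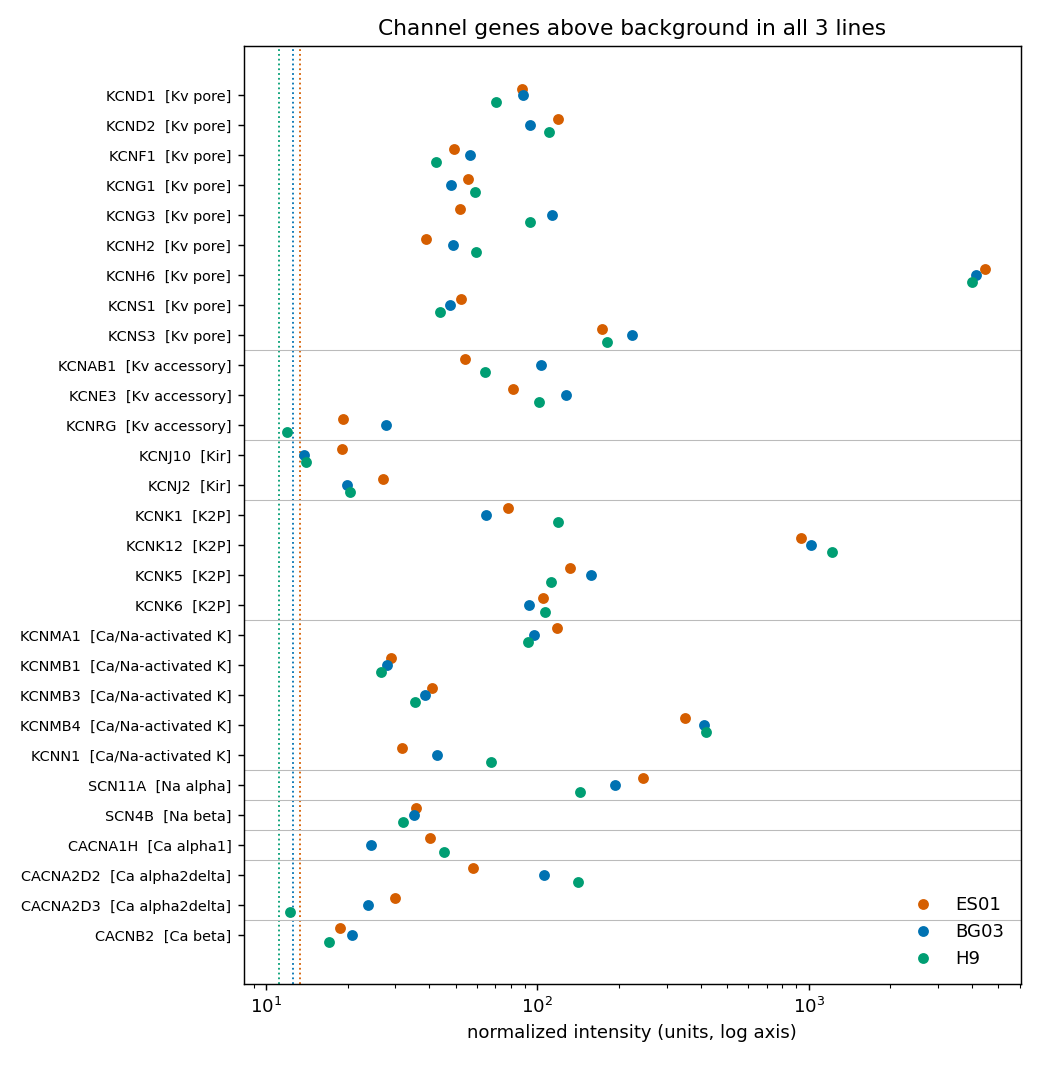
Normalized intensity (horizontal log axis) of the 29 channel genes above background in all 3 lines (vertical axis, class in brackets), with 1 point per line and dotted lines at the thresholds of 13.3, 12.6 and 11.2 units in ES01, BG03 and H9. For most genes the 3 points lie close together, and those of CACNA2D2, CACNA2D3, KCNRG and KCNG3 are spread widest.

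Two-pore domain (K2P) channels carry the background leak of potassium that sets the resting potential. Of 15 KCNK genes, 4 passed in every line, 5 in 1 or 2 and 6 in none. KCNK12 (THIK-2, which gives little current at the surface when expressed alone) read 934.3 in ES01, 1022.9 in BG03 and 1224.3 in H9 (SD 0.20). KCNK5 (TASK-2, opened by alkaline pH) read 131.8, 157.5 and 112.4 in ES01, BG03 and H9 (SD 0.24). Neither differed by 2-fold between lines.

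KCNK6 (TWIK-2) read 104.7, 93.4 and 106.9 in ES01, BG03 and H9 (SD 0.11). KCNK1 (TWIK-1) read 77.7, 64.5 and 119.5 (SD 0.46), with H9 high. KCNK17 (TALK-2) read 9.2 in ES01, 27.0 in BG03 and 18.5 in H9, so it was above background in BG03 and H9 only. KCNK10 read 16.9, 15.6 and 11.2 in ES01, BG03 and H9 and did not exceed the threshold in H9. KCNK4 (13.8 in ES01) and KCNK7 (13.9 in ES01) passed in ES01 alone, and KCNK9 (15.4 in BG03) in BG03 alone, all by a small margin. KCNK2, KCNK3, KCNK13, KCNK15, KCNK16 and KCNK18 passed in no line.

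Calcium-activated potassium channels link calcium inside the cell to the membrane potential. Here 5 of 10 genes of the calcium- or sodium-activated class passed in every line and the other 5 in none, with no gene in between. Of the 5, 4 belong to 1 channel complex, the large-conductance BK channel: its pore KCNMA1 and 3 of its 4 beta subunits measured. Among all genes 59.8% passed in every line, so nothing is read from these counts. KCNMB3 passed in every line only at its probe for all isoforms, and not with the mean of its probes. KCNMB1 did not pass in every line at the 99th percentile of olfactory receptor probes. KCNMA1 read 117.9, 97.1 and 92.6 in ES01, BG03 and H9 (SD 0.19). KCNMB4, a beta subunit best known from brain, read 351.1, 410.8 and 418.1 (SD 0.14). KCNMB1, a beta subunit best known from smooth muscle, read 28.9, 27.9 and 26.5 (SD 0.06), and KCNMB3 read 41.0, 38.4 and 35.3 (SD 0.11). All 4 BK genes had an SD of at most 0.19, and no line was apart from the others by 2-fold in any of them. The median SD was 0.18 over all genes above background in all lines. Of genes above background in at least 1 line, 8.29% differed at least 2-fold between any pair. Such steadiness is therefore not particular to BK genes. KCNN1, the pore of the small-conductance SK1 channel, read 31.8 in ES01, 42.6 in BG03 and 67.5 in H9 (SD 0.55), highest in H9. KCNMB2, KCNN3, KCNN4 and the sodium-activated KCNT1 and KCNT2 were above background in no line.

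Of 9 sodium channel alpha subunits, only SCN11A was above background in all lines. It encodes Nav1.9, a channel known from pain-sensing neurons that opens near the resting potential, and read 246.3 in ES01, 192.7 in BG03 and 144.0 in H9 (SD 0.39). SCN8A read 6.3, 10.3 and 15.2 in ES01, BG03 and H9 and passed in H9 alone. The neuronal genes SCN1A, SCN2A, SCN3A, SCN9A and SCN10A, the muscle gene SCN4A and SCN7A passed in no line. Among 3 beta subunits, SCN4B read 35.8, 35.0 and 32.1 in ES01, BG03 and H9 (SD 0.08), and SCN2B and SCN3B passed in none.

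Of 10 calcium channel alpha1 subunits, only CACNA1H was above background in all lines, with 40.2 in ES01, 24.4 in BG03 and 45.2 in H9 (SD 0.47). It encodes the T-type pore Cav3.2, which opens at small depolarizations. The other T-type genes, CACNA1G and CACNA1I, passed in no line, nor did CACNA1A, CACNA1B, CACNA1D, CACNA1E or CACNA1S. CACNA1C, the L-type pore of heart muscle, read 7.7, 13.1 and 8.0 in ES01, BG03 and H9 and passed in BG03 alone. CACNA1F, known from the retina, read 5.6, 9.9 and 13.5 and passed in H9 alone.

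Alpha2delta subunits bring calcium channels to the surface and bind gabapentin-type drugs in the case of CACNA2D1 and CACNA2D2. CACNA2D2 read 57.9 in ES01, 105.6 in BG03 and 141.8 in H9 (SD 0.66). CACNA2D3 read 29.9, 23.7 and 12.3 in ES01, BG03 and H9 (SD 0.66). The order of the lines was opposite for these 2 genes: ES01 was lowest for CACNA2D2 and highest for CACNA2D3. CACNB2, an intracellular beta subunit, read 18.8, 20.7 and 17.1 in ES01, BG03 and H9 (SD 0.14), and CACNB1, CACNB3, CACNA2D1 and CACNA2D4 passed in no line. No gamma subunit passed in all lines: CACNG4 read 9.9, 13.2 and 5.5 and CACNG6 read 11.5, 12.5 and 18.5 in ES01, BG03 and H9, and the other 6 passed in none.

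Several calls lay near the threshold. In 6 of the 29 genes that passed in every line (CACNA1H, CACNA2D3, CACNB2, KCNJ10, KCNJ2 and KCNRG) the lowest value was under 2 times that array's threshold. Of the 20 genes above in 1 or 2 lines, 18 peaked under 2 times the threshold, the exceptions being KCNH8 at 216% and KCNK17 at 215% of it. On the other side, the nearest genes below were CACNA1D (1.7, 12 and 4.5 in ES01, BG03 and H9, 95.1% of the threshold at its highest), KCNAB3 (0.5, 11.7 and 5.8, 93.2%) and KCNK13 (4.0, 11.7 and 10, 93.2%). A gene passing in a single line is therefore not shown to differ between lines.

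The spread of these 29 genes over the lines was set beside that of all genes. The SD of log2 intensity over the 3 lines had a median of 0.21 (range 0.06 to 0.66), against 0.18 over 9695 genes above background in all lines. The whole range was under 0.5 on the log2 scale in 18 of the 29, and in 6688 of the 9695. ES01 held the highest value in 11 of the 29 genes, BG03 in 9 and H9 in 9. The median difference over the 29 was 0.03 for ES01 minus BG03, 0.13 for ES01 minus H9 and 0.08 for BG03 minus H9, against -0.02, 0.00 and 0.02 over the 9695 genes.

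Of the 49 genes that passed in at least 1 line, 6 (12.2%) differed at least 2-fold between some pair of lines, against 8.29% of 11004 genes. With 6 genes these shares are close, and nothing is read from the difference. ES01 was at least 2-fold higher than BG03 in 0 of the 49 (2.27% of all genes) and lower in 2 (1.48% of all genes). KCNG3 had 51.9 in ES01 and 113.0 in BG03, a log2 difference of -1.12. KCNK17 had 9.2 in ES01, under the threshold, and 27.0 in BG03, so it was at least 2.04-fold lower in ES01. ES01 was at least 2-fold higher than H9 in 1 gene (2.9% of all genes), CACNA2D3 (log2 difference 1.28), and lower in 2 (2.24% of all genes), CACNA2D2 (-1.29) and KCNN1 (-1.09). BG03 was at least 2-fold higher than H9 in 1 gene (1.74% of all genes), KCNRG (1.20), and lower in 0 (1.5% of all genes).

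Ranges this large were not rare in these arrays. Among the 11004 genes, 3.96% had a range over the lines at least as large as CACNA2D2, 4.13% as CACNA2D3, 4.91% as KCNRG, 6.04% as KCNG3, 6.60% as KCNN1 and 7.54% as KCNK17. Under quantile normalization the median difference of all genes was -0.01 for ES01 minus BG03 and 0.01 for ES01 minus H9. The deposited values gave -0.01 and 0.06. Scaling each array to the same median in place of quantile normalization gave -0.34 and -0.27. The deposited medians were 4.4, 3.5 and 3.5 units in ES01, BG03 and H9. All lie under the background thresholds, so same-median scaling is set by probes near background. On that scale ES01 was at least 2-fold lower than BG03 in 4 channel genes (CACNA2D2, KCNAB1, KCNG3 and KCNK17) and higher in 0, against 4.52% and 1% of all genes. It was lower than H9 in 4 (CACNA2D2, KCNG3, KCNH8 and KCNN1) and higher in 0, against 5.69% and 1.52% of all genes. CACNA2D3 then stood at 0.92 for ES01 minus H9, the same direction but under 2-fold. With the 99th percentile of olfactory receptor probes as background, the differences of CACNA2D3 (0.25), KCNK17 (-0.52) and KCNRG (0.29) were also under 2-fold. KCNG3 in ES01 against BG03, CACNA2D2 and KCNN1 in ES01 against H9, and KCNRG in BG03 against H9 held their direction and 2-fold size under quantile, same-median and deposited scaling.

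**Figure D4:**
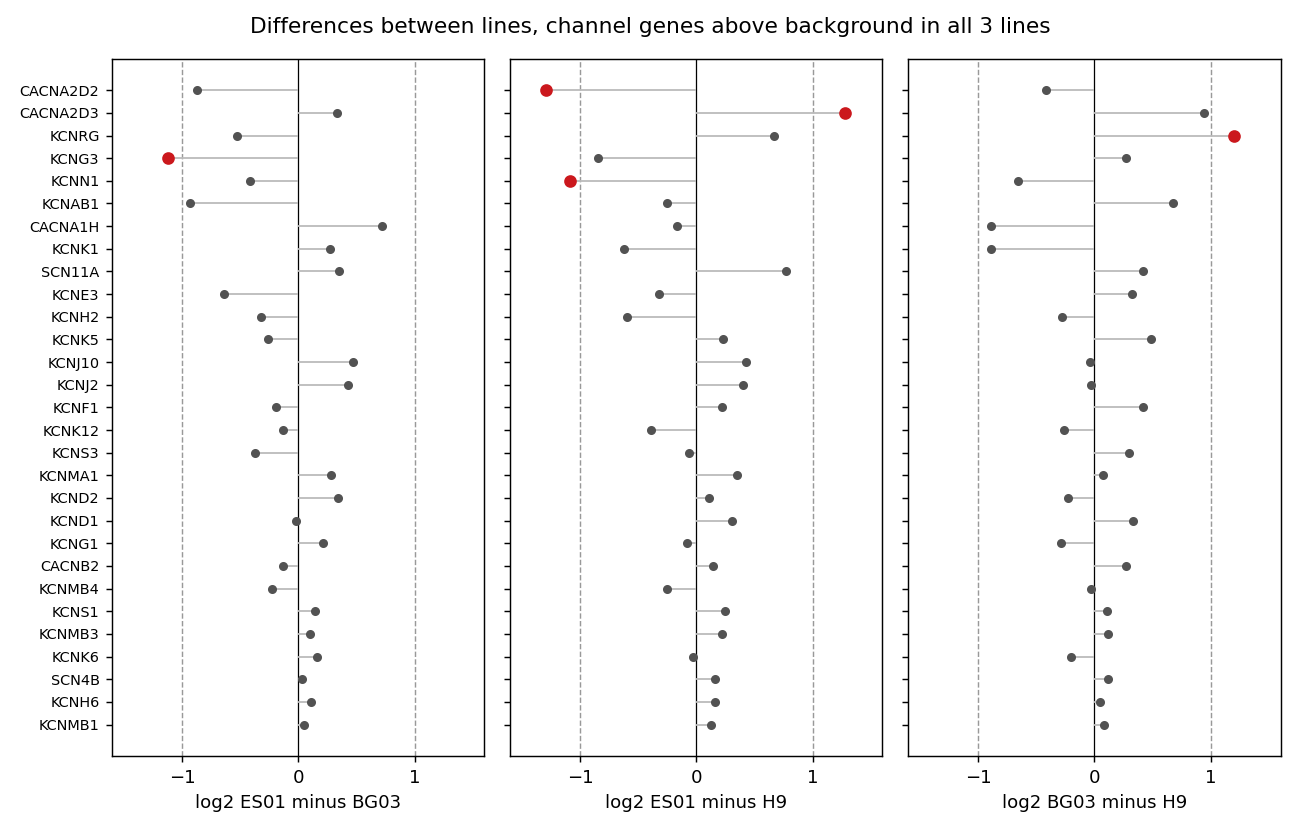
Log2 difference (horizontal axis) of the 29 channel genes above background in all 3 lines, for ES01 minus BG03, ES01 minus H9 and BG03 minus H9, ordered by range. Dashed lines mark 2-fold and red points pass it; KCNK17, which is under background in ES01, is not drawn.

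Some genes were read by several probes, and these often disagreed. By the array maker's naming, a probe is made for all isoforms of a gene, for 1 isoform, or for a gene with a single known transcript. Of 27 channel genes with several probes, 7 had a probe above background in all lines, and in 6 of these 7 another probe was above in no line. For KCNH6 the isoform probe read at least 4020.0 in each line, whereas the probe for all isoforms read 3.3, -3.5 and -6.4 in ES01, BG03 and H9. For KCNH2 an isoform probe passed in all lines, a second isoform probe read 11.1, 14.1 and 9.9, and the probe for all isoforms read 3.7, 4.3 and 3.6 in ES01, BG03 and H9. In both Erg genes the probe meant for all isoforms was thus under background in every line. The second isoform probe of KCNH2 passed in BG03 alone.

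The reverse held in 3 genes, where the probe for all isoforms passed. In KCNAB1 all 3 isoform probes were under background, between -10.1 and 8.3. In KCNRG the isoform probe read 4.2, 1.4 and 3.9 in ES01, BG03 and H9. In KCNMB3, 1 of 3 isoform probes read 4.5, 6.4 and 13.7 and passed in H9 alone, and the others passed in none. In CACNB2 an isoform probe and the probe for all isoforms (15.3, 16.2 and 20.3 in ES01, BG03 and H9) both passed, and a second isoform probe did not (3.3, 8.1 and -1.2). In KCNG1 the isoform probe passed in all lines and the probe for all isoforms read 11.3, 9.3 and 12.8, above background in H9 alone. The cause of these disagreements was not tested, and the levels of these 7 genes depend on which probe is used.

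**Figure D5:**
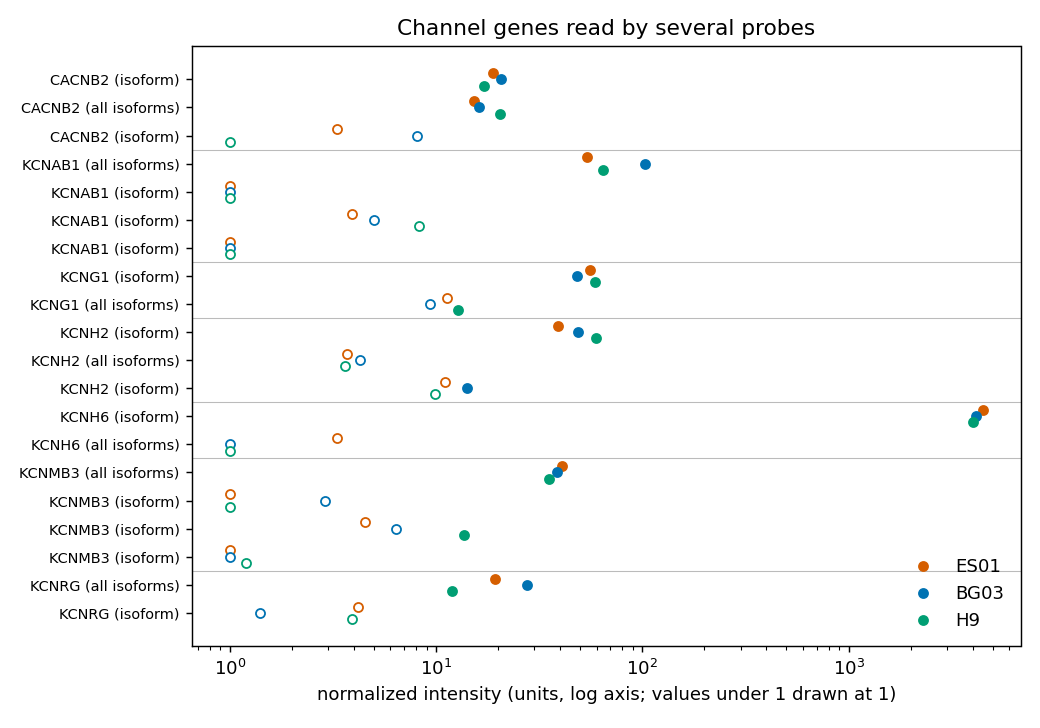
Normalized intensity (horizontal log axis, values under 1 drawn at 1) of every probe of the 7 channel genes that have several probes and at least 1 above background in all lines. Filled points are above the array's threshold and open points are not; in every gene but KCNG1 at least 1 probe is open in all 3 lines.

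Of channel genes next to each other on a chromosome, 17 pairs were measured, and in 0 of the 17 pairs did both genes pass in every line. With 24.4% of the channel genes passing in every line, few such pairs could occur. No share over neighbouring genes of the whole array is given, so nothing is read from the counts of pairs. In 2 pairs one gene was above in all lines and its neighbour in none: SCN4B with SCN2B on chromosome 11, and SCN11A with SCN10A on chromosome 3. The genes SCN1A, SCN2A, SCN3A, SCN7A and SCN9A, which lie together on chromosome 2, were above background in no line.

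Proteins that work with these channels were described from a list of 34 genes, of which 26 were measured. Of these, 14 passed in every line, 2 in some and 10 in none. Among all genes 59.8% passed in every line, so the count does not set this list apart. Among channel partners, DPP6, a partner of Kv4 channels, read 38.9, 66.4 and 67.0 in ES01, BG03 and H9 (SD 0.45), and LRRC26, which shifts BK channels toward opening at rest, read 29.2, 42.2 and 64.9 (SD 0.58). Both of their pores, KCND2 and KCNMA1, were above background too. DPP10, the other DPP gene listed, passed in BG03 and H9 only. FGF12 read 119.5, 105.8 and 151.9 and FGF13, another intracellular FGF that binds sodium channels, read 885.2, 637.4 and 630.6 in ES01, BG03 and H9, whereas FGF11 and FGF14 passed in no line. The membrane anchors ANK2 (36.6, 42.0 and 40.2) and ANK3 (544.0, 639.3 and 664.5) were above background, while the spectrin SPTBN4 was not.

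NEDD4L, a ubiquitin ligase that removes sodium channels from the surface, read 153.6, 128.5 and 155.5 in ES01, BG03 and H9. The kinase PTK2B read 20.4, 13.6 and 17.7. Both were above background in every line, PTK2B by a small margin in BG03. Of the pacemaker channels only HCN3 passed (23.9, 29.0 and 33.9 in ES01, BG03 and H9), with HCN2 and HCN4 in no line. The sodium leak channel NALCN, the calcium channel inhibitors RRAD, GEM and REM1, and ABCC9, a subunit of ATP-sensitive potassium channels, passed in no line, and ABCC8 passed in BG03 alone. Pump subunits and a chloride importer that support the ion gradients were above background: ATP1B1 read 726.7, 488.5 and 626.6, ATP1B2 45.8, 35.1 and 60.1, and ATP1B3 3402.0, 3708.5 and 2900.6 in ES01, BG03 and H9. SLC12A2 read 35.9, 32.9 and 34.1 in the same lines.

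Markers were read to check the label and to show what other cells the RNA could hold. For pluripotent cells, 8 of 9 measured markers were above background in all lines, all but SOX2, with summed intensities of 20726 in ES01, 18750 in BG03 and 16763 in H9. For neurons, 4 of 11 were (TUBB3, DCX, SYT1 and NEFM, sums 1880, 1600 and 1633), and SYN1, SNAP25, MAP2 and ELAVL4 were above in no line. For heart and muscle, 3 of 9 were (ACTC1, MYL7 and TNNI3, sums 3519, 1781 and 1877 in ES01, BG03 and H9), and MYH6, MYH7, NKX2-5, DES, MYOD1 and MYOG were above in no line. For fibroblasts, 5 of 10 were (COL1A1, COL1A2, THY1, PDGFRB and S100A4, sums 1591, 1279 and 1231), and COL3A1 and COL6A3 were above in no line. The feeder layer holds mouse fibroblasts, whereas the probes are for human genes, so these values do not measure feeder RNA. All 4 sums were highest in ES01, the line that was low for KCNG3, CACNA2D2 and KCNN1 but high for CACNA2D3. A few bright probes carry the sums: in ES01 ACTC1 read 3335.5, TUBB3 1575.1 and THY1 823.6, and THY1 was highest in BG03 (851.4). The markers did not move as 1: of the 20 above background in all lines, 11 were highest in ES01, 7 in BG03 and 2 in H9. Their part in the channel values was not tested.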

How the data were processed

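Each line had 1 array (Illumina whole-genome beads, Cy3, per the labels' protocols). The deposited value table gives an intensity for each of 47293 probes; 26.3%, 32.8% and 33.8% of the deposited values are below 0 in ES01, BG03 and H9, so background had been subtracted. Neither the authors' software nor a scaling of the arrays is stated in the labels or headers. Deposited bead-level files, whose bead codes could not be tied to genes here, were not used. The platform annotation gave 1 symbol to 18468 probes and none to 28825; 18451 were found by gene ID in RefSeq gene records (assembly GRCh38.p14).

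Quantile normalization in limma 3.58.1 (R 4.3.3; data.table, version 1.17.8) used all probes but 4 bacterial controls, and summaries were made in Python 3.11.15 (numpy 2.4.6, pandas 2.3.3, matplotlib 3.10.9). A gene was read by its probe of highest mean. Before log2 was taken for differences, values under the threshold were set to it, and genes under it in every line were left out. The number of arrays limits the precision. The counting was tested on simulated data with changes only in genes well above background, so that test does not cover genes near the threshold. Named were all channel genes above background in any line, those in no line by name only apart from the 3 nearest the threshold, second probes that disagreed, and listed partners above background in all lines. The rule for the genes uses symbols and no values, but it and the lists were set with earlier results of these data known. Alternatives changed scaling, threshold, probe choice, floor, fold or lines used.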

Additional observations from a re-analysis of the deposited data

How the results depend on the processing

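The count of channel genes above background in all lines was 29 with the deposited values and with same-median scaling, 25 with the mean of a gene's probes, 22 with the 99th percentile of olfactory receptor probes, 31 with a second set of silent genes and 23 at 2 times the threshold, a setting chosen after seeing the data. With 1 line left out it was 31 to 32. The share of all genes stayed between 52.9% and 61.3%. The count in at least 1 line fell to 26 at the 99th percentile and 29 at 2 times the threshold, with no matching share of all genes given. At these 2 settings, inward rectifiers had 0 and 0 and calcium channels 1 and 1 genes above background in all lines, since a higher threshold leaves fewer genes. Sodium channels had 2 under every alternative.

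Genes past 2-fold between ES01 and BG03 numbered 1 with deposited values, 4 with same-median scaling, 1 at the 99th percentile and 1 with a floor of 50 units. Between ES01 and H9 there was 1 with that floor. Between BG03 and H9 there were 0 with the mean of probes, 0 at the 99th percentile and 0 with that floor. At 1.5-fold the 3 pairs had 6, 10 and 7 genes, and at 3-fold 0, 0 and 0. Shares of all genes at these folds and at that floor are not given, so nothing is read from these counts. KCNK17 fell under 2-fold with deposited values (-0.98 on the log2 scale, ES01 minus BG03) and KCNRG with the mean of probes (0.38, BG03 minus H9). At the 99th percentile 3 differences did: CACNA2D3 (0.25, ES01 minus H9), KCNK17 (-0.52) and KCNRG (0.29). With the floor of 50 units CACNA2D3, KCNK17 and KCNRG were at the floor in both lines and KCNN1 stood at -0.43 (ES01 minus H9). Mean levels of the 29 genes moved by over 1 SD in 6 genes under the mean of probes, and in 0 under deposited values, same-median scaling or with a line left out. Over the alternatives of scaling, probe choice, background, floor and lines used, the 6 differences past 2-fold gave 48 values. Of these, 45 kept the direction, 3 were at the floor and 0 were opposite, and 10 of the 48 were under 2-fold. The alternatives reprocess the same 3 arrays on which the 6 genes were picked, so the kept direction is no independent support. Signal near background limits the 20 genes called in 1 or 2 lines, and 1 array per line allows no test between lines. No paired analysis was possible because the lines form 1 group.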
